A study of Mus musculus with 12 samples.

Results

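The genes of the constitutive proteasome were measured in sorted leukemic cells of mice with a CML-like disease, that is, a mouse model of chronic myeloid leukemia. Members were the features named Psma, Psmb, Psmc or Psmd with a number, without the immunoproteasome subunits Psmb8, Psmb9 and Psmb10, and numbered copies of a gene were summed. This gave 36 genes of 46103 listed, 16 of the 20S core (Psma and Psmb) and 20 of the 19S regulator (Psmc and Psmd). Of these, 35 reached 1 RPKM (reads per kilobase of transcript, scaled to the reads of the library) in at least 3 libraries and were tested among 10072 genes. Psmb11, a beta subunit known from the cortical epithelium of the thymus, did not, with 0 to 9 reads per library in the data.

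Each of the 12 libraries was made from 100 cells sorted out of marrow and spleen, with 3 libraries in each of 4 groups. All groups came from lethally irradiated C57BL/6 recipients of bone marrow transduced with a BCR-ABL1 retrovirus. The donor marrow came from G0M mice treated with 5FU, in which Vav1-Cre turns on the G0 marker in blood cells, so all groups shared the retrovirus, the marker and the irradiated host. DP cells were BCR-ABL1+ stem and progenitor cells (Kit+Sca-1+Lineage-) sorted as CD27+ and G0M+, and SP cells were their G0M- counterparts, both from vehicle-treated mice. IMDP and IMSP cells were the same populations from mice given imatinib, the inhibitor of the BCR-ABL1 kinase, by oral gavage once daily. The labels do not say that libraries of a group came from separate mice, so p-values measure the spread between these libraries, which may be technical. The imatinib libraries carry the library numbers 1 to 6 and the vehicle libraries 7 to 12, so the treatment and the numbering cannot be told apart.

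The proteasome degrades proteins tagged with ubiquitin. Its 20S core is a barrel of stacked rings, with alpha subunits forming the gate at each end and beta subunits inside, among them the catalytic subunits Psmb5, Psmb6 and Psmb7. The 19S regulator caps the barrel, and its base holds a ring of ATPases that unfold the substrate (Psmc genes) and ubiquitin receptors, while its lid holds the enzyme Psmd14, which removes the ubiquitin chain. Blood stem cells are known to make protein at a low rate.

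Totals behind the RPKM were 11.4 to 20.6 M reads per library, and 25.2% to 36.1% of them fell on the listed features. The lowest library was in IMDP, whose range (25.2% to 30.2%) overlapped that of DP (30.0% to 32.7%). The sort markers Kit, Ly6a (the gene of Sca-1) and Cd27, and the progenitor gene Cd34, were above 1 RPKM in all libraries. The 10 proliferation genes fixed in a list summed to 33.2 to 96.5 RPKM in DP against 275 to 293 RPKM in SP, and to 23.7 to 44.7 RPKM in IMDP against 259 to 348 RPKM in IMSP, with all 10 lower in both comparisons. Mast cell and basophil genes (9 genes) summed to 76.3 to 329 RPKM in DP against 10.5 to 23.0 RPKM in SP, and to 14.9 to 194 RPKM in IMDP against 7.92 to 24.4 RPKM in IMSP, where the groups overlapped. Cma1, Tpsb2 and Mcpt4 of these were at 0 in all SP and IMSP libraries. Erythroid genes (8 genes) summed to 205 to 250 RPKM in DP against 51.0 to 147 RPKM in SP, and to 58.4 to 327 RPKM in IMDP against 10.7 to 72.9 RPKM in IMSP, which overlapped. Macrophage genes (6 genes) summed to 1.47 to 7.72 RPKM in DP against 0.207 to 0.306 RPKM in SP, and to 4.54 to 6.57 RPKM in IMDP against 0.161 to 1.45 RPKM in IMSP, with C1qa, C1qb, C1qc, Cd5l and Marco at 0 in all SP and IMSP libraries. In DP and in IMDP, 1 of the 6 macrophage genes was also at 0 in all libraries of the group. Megakaryocyte genes (4 genes) summed to 24.9 to 118 RPKM in DP against 10.7 to 34.2 RPKM in SP, and to 11.5 to 72.2 RPKM in IMDP against 6.35 to 26.6 RPKM in IMSP, and overlapped in both. Lymphoid genes (6 genes) summed to at most 4.16 RPKM in any library. In IMDP against IMSP, 1 mast cell and basophil gene (Prss34), 1 erythroid gene (Hbb-bt, limma adjusted p = 0.0361) and 1 macrophage gene (C1qc, limma adjusted p = 0.00829) were called higher, and in DP against SP 2 mast cell genes were (Cma1 and Prss34). Neutrophil and monocyte genes (10 genes) summed to 75.3 to 1493 RPKM in DP, 401 to 2737 RPKM in SP, 80.4 to 309 RPKM in IMDP and 534 to 2336 RPKM in IMSP. The part of these cell-type and cell-cycle genes in the results on the proteasome was not tested. In these bulk libraries, fewer cells of a type and less RNA per cell cannot be told apart.

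The subunit genes were expressed in all 4 populations. Apart from Psmb11 and the germ-cell alpha subunit Psma8, all 34 were above 1 RPKM in every library, with 27 to 2503 reads per gene and library. On the RPKM scale, which is per length, Psmb5, the chymotrypsin-like catalytic subunit, had the highest mean level over the 12 libraries, at 55.8 ± 18.5 RPKM (SD, n = 12). It was followed by Psma5 at 47.5 ± 12.0 and Psmb4 at 45.8 ± 9.25 RPKM (SD, n = 12), 2 structural subunits of the core. These SDs include the differences between the groups, and whether the genes differed within a library was not tested. The regulator gene with the highest level was Psmd2, a scaffold of the base, at 32.9 ± 8.05 RPKM, and the ATPase Psmc4 followed at 27.2 ± 6.58 RPKM (SD, n = 12). The lowest of the 34 were the assembly factors Psmd9 at 3.52 ± 0.885 and Psmd10 at 2.46 ± 0.829 RPKM (SD, n = 12), which help build the regulator and leave it before it is mature.

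The levels of the subunit genes varied together from library to library. Over the 12 libraries, Pearson's r between one gene and the median of the other members, on the log2(RPKM + 0.1) scale, ranged from 0.744 (Psmd10) to 0.980 (Psma6) with a median of 0.936. After the median of all tested genes was subtracted in each library, r ranged from 0.576 (Psmd10) to 0.967 (Psmc2), with a median of 0.880. The points share libraries, depth and the groups themselves, so these are descriptions. The heat map of 34 genes shows this by library.

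**Figure D1:**
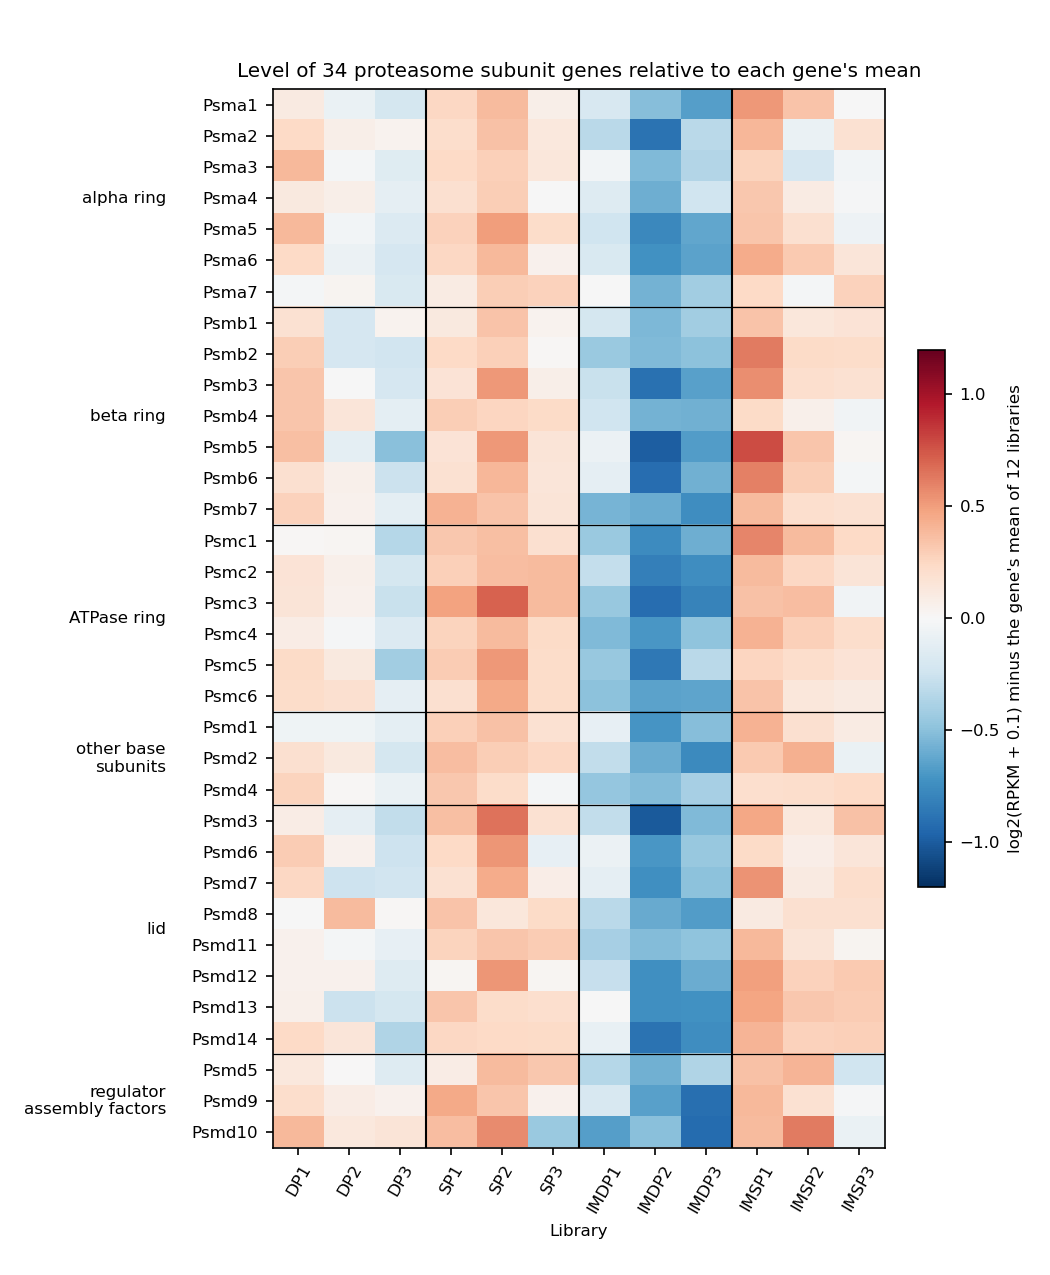
Each row is 1 of 34 proteasome subunit genes, grouped by role, and each column is 1 of 12 libraries; the colour is log2(RPKM + 0.1) minus the gene's mean over the 12 libraries. IMDP libraries are blue in almost every row, and the SP and IMSP libraries are mostly red.

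The first question was whether G0M+ and G0M- cells differed after imatinib. In IMDP cells, 32 of the 35 subunit genes tested were lower than in IMSP cells and none was higher (limma with Benjamini-Hochberg adjustment over all 10072 genes, adjusted p under 0.05), where 23.3% of all genes tested were lower. The median log2 fold change was -0.70 over the 15 core genes and -0.78 over the 20 regulator genes, against -0.25 over all genes tested. Relative to all genes, the medians were thus -0.45 for the core and -0.52 for the regulator. All 35 genes had a fold change below 0, as did 69.0% of all genes. In 32 of the 35 genes, every IMDP library was below every IMSP library, which was the case for 32.8% of all genes tested.

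Among the beta subunits, all 7 tested fell in IMDP against IMSP. Psmb7, the trypsin-like catalytic subunit, stood at 24.2, 23.5 and 21.2 RPKM in IMDP and at 46.5, 41.1 and 40.3 RPKM in IMSP. Its IMDP libraries were close to each other and far below the IMSP libraries, and the log2 fold change was -0.89 ± 0.13 (SE, limma adjusted p = 0.00124). Psmb5 stood at 50.2, 26.6 and 33.1 RPKM in IMDP and at 91.3, 66.6 and 53.8 RPKM in IMSP. Its groups did not overlap, but the highest IMDP library came near the lowest IMSP library, and the log2 fold change was -0.96 ± 0.27 (SE, limma adjusted p = 0.0257). The caspase-like subunit Psmb6 had 21.3, 12.1 and 15.4 RPKM in IMDP and 35.0, 28.1 and 22.6 RPKM in IMSP, with a log2 fold change of -0.82 ± 0.22 (SE, limma adjusted p = 0.0189). Here too IMDP1 lay just below IMSP3. Of the other beta subunits, Psmb2 and Psmb3 fell by 0.84 and 0.91 on the log2 scale, while Psmb4 fell by 0.54, the least of the ring.

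Of the alpha subunits, which form the outer rings and the gate, 6 of 8 fell. Psma6 had 37.3, 25.6 and 27.1 RPKM in IMDP and 57.8, 52.6 and 46.8 RPKM in IMSP, and its log2 fold change of -0.82 ± 0.17 (SE, limma adjusted p = 0.008) was the most negative of the ring. Psma3 had 10.3, 7.21 and 8.19 RPKM in IMDP and 12.6, 9.08 and 10.2 RPKM in IMSP, overlapping values with a log2 fold change of -0.31 ± 0.18 (SE, limma adjusted p = 0.221). Psma8 was the other alpha gene that did not pass the test and is described further on.

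All 6 ATPases of the regulator base fell, by 0.76 to 1.00 on the log2 scale. Psmc4 had the smallest p among the members, with 18.3, 16.2 and 18.8 RPKM in IMDP and 35.3, 32.2 and 30.6 RPKM in IMSP. Its 6 values fell into 2 tight clusters, and the log2 fold change was -0.88 ± 0.12 (SE, limma adjusted p = 0.000654), so that Psmc4 fell by 45.6%. Psmc1 stood at 9.23, 7.43 and 8.37 RPKM in IMDP and at 18.9, 16.4 and 14.9 RPKM in IMSP. It fell by 1.00 ± 0.15 on the log2 scale (SE, limma adjusted p = 0.00118), or by 49.9%, with no overlap between the groups. The ATPase with the smallest change, Psmc5, had 9.21, 6.95 and 10.1 RPKM in IMDP and 15.2, 14.7 and 14.2 RPKM in IMSP.

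The other base subunits, the scaffolds Psmd1 and Psmd2 and the ubiquitin receptor Psmd4, all fell as well, by 0.67 to 0.77 on the log2 scale. In the lid, 7 of 8 genes fell. Psmd3, a structural lid subunit, had 18.3, 11.1 and 15.6 RPKM in IMDP and 31.2, 24.6 and 28.8 RPKM in IMSP. Psmd11, another structural lid subunit, varied less within a group, with 9.55, 8.76 and 9.05 RPKM in IMDP and 16.5, 14.1 and 13.0 RPKM in IMSP. Their log2 fold changes were -0.93 ± 0.19 (SE, limma adjusted p = 0.00743) and -0.66 ± 0.12 (SE, limma adjusted p = 0.00395). The deubiquitinase Psmd14 fell by 0.90 on the log2 scale. Psmd6 was the lid gene that did not pass the test, at -0.56 ± 0.20 (SE, limma adjusted p = 0.0636, and 0.0458 with the replicate block), although its values of 10.7, 6.85 and 8.15 RPKM in IMDP lay below the 13.1, 11.9 and 12.4 RPKM of IMSP.

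The 3 assembly factors of the regulator fell too. Psmd10, also known as gankyrin, had 1.44, 1.62 and 1.18 RPKM in IMDP and 3.05, 3.63 and 2.19 RPKM in IMSP without overlap. It fell from a mean of 2.95 RPKM in IMSP to 1.41 RPKM in IMDP, with an SE of 0.27 on the log2 fold change (limma adjusted p = 0.0194). Psmd9 fell by 0.77 and Psmd5 by 0.60 on the log2 scale.

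**Figure D2:**
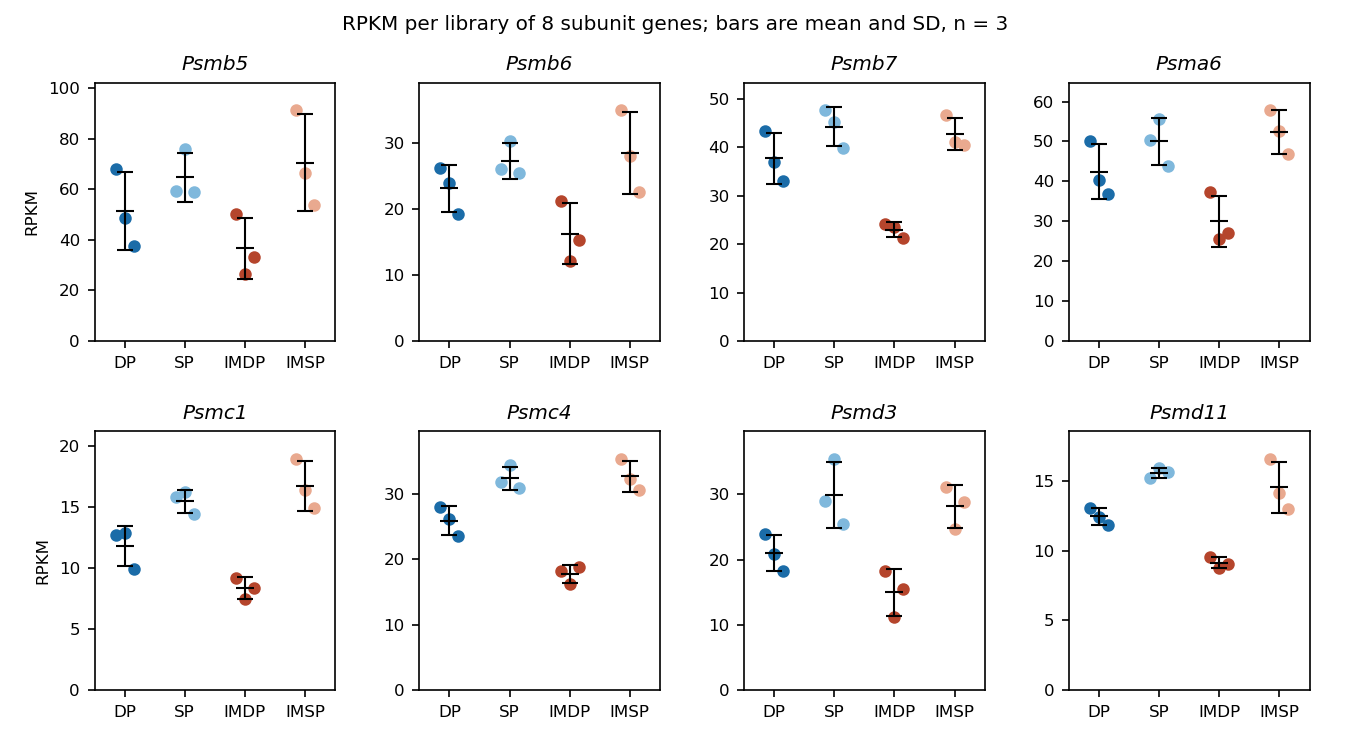
Each panel shows the RPKM of 1 subunit gene on a linear axis from 0, with a point per library and the mean ± SD (n = 3) of DP, SP, IMDP and IMSP cells. In all 8 genes every IMDP point lies below every IMSP point, while DP and SP points overlap in Psmb5, Psmb6, Psmb7 and Psma6.

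The number of genes called depended on how the libraries were scaled, since the median of all genes itself differed by -0.25 between IMDP and IMSP. With libraries scaled to the same median, 20 of the 35 members were lower (6 core and 14 regulator genes; 9.33% of all genes tested), and with scaling to the same RPKM sum 13 were (4 core and 9 regulator genes; 6.14% of all genes). Among all genes called, the share that was lower was 90.7% without scaling, 59.2% with median scaling and 39.0% with scaling to the RPKM sum. No member was called higher in any of these fits. Without IMSP1, 17 members were called (8.46% of all genes were lower), and without IMDP2 21 were (10.8% of all genes). The 13 genes called in each of the 26 settings run, the reported one included, were Psma6, Psmb2, Psmb3 and Psmb7 of the core, Psmc1, Psmc2, Psmc3, Psmc4 and Psmc6 of the ATPase ring, and Psmd3, Psmd12, Psmd13 and Psmd14 of the lid. How many of all genes were called in every setting was not counted, so the 13 only describe the members. A larger share of genes passed at higher levels. Among the 5428 genes at 5 RPKM or more in at least 3 libraries, 41.3% were lower in IMDP, and so were 31 of the 32 members in that set.

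The same question was asked of cells from vehicle-treated mice. In DP against SP cells, 0 of the 35 members passed the test, where 2.26% of all genes did. Of the members 34 had a fold change below 0 (51.9% of all genes), and 6 had an unadjusted p under 0.05 (13.2% of all genes), all of the regulator. The medians were -0.22 for the core, -0.29 for the regulator and -0.02 for all genes. The 6 were Psmc1, Psmc3, Psmc4, Psmd1, Psmd3 and Psmd11. In 10 members, 9 of them of the regulator, every DP library was below every SP library, which was the case for 12.7% of all genes tested.

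Psmc3, an ATPase of the base, had the most negative fold change, with 24.4, 22.7 and 18.1 RPKM in DP and 30.6, 35.7 and 28.4 RPKM in SP. Its groups did not overlap, at a log2 fold change of -0.54 ± 0.17 (SE, limma adjusted p = 0.183). Psmc4 had 28.0, 26.2 and 23.5 RPKM in DP and 31.9, 34.4 and 30.9 RPKM in SP, again without overlap (-0.32 ± 0.12, SE, limma adjusted p = 0.265). The catalytic genes overlapped between the groups. Psmb5, for example, had 68.1, 48.7 and 37.4 RPKM in DP and 59.2, 76.0 and 58.9 RPKM in SP. Psmd10 was the member with a fold change above 0, at 0.06 ± 0.27 on the log2 scale (SE, limma adjusted p = 0.941).

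Libraries with neighbouring numbers in the labels, such as 9 and 10, are 1 G0M+ and 1 G0M- library each, and resembled each other. Deviations from the group means correlated across genes at 0.495, 0.512 and 0.519 in the 3 vehicle pairs of this kind, whereas same-numbered DP and SP titles gave -0.192, -0.298 and -0.098. With these pairs as a block, 2 members passed the test in DP against SP (Psmc3 and Psmd3; 5.56% of all genes were lower). With the block and median scaling together, a fit added after seeing the data, 7 were lower, all of the regulator (Psmc1, Psmc2, Psmc3, Psmc4, Psmd1, Psmd3 and Psmd7; 7.07% of all genes). Within the pairs, all 34 genes were lower in the G0M+ library in each of the 3 imatinib pairs (63.7%, 76.6% and 62.4% of all genes) and in DP3 against SP1 (58.5% of all genes). In the other 2 vehicle pairs, 29 (DP1 against SP2) and 27 (DP2 against SP3) of 34 were, with 48.1% and 47.9% of all genes. The median differences were -0.68, -0.93 and -0.70 in the imatinib pairs and -0.43, -0.18 and -0.14 in the vehicle pairs, on the log2 scale. Over all genes the medians in these pairs were -0.19, -0.39 and -0.18, and -0.09, 0.02 and 0.02. Over all pairs, 23 genes were lower in the G0M+ library in all 6 pairs, 10 in 5 and Psmd4 in 4. The pairs were not counted in this way for all genes, so these counts only describe the members.

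**Figure D3:**
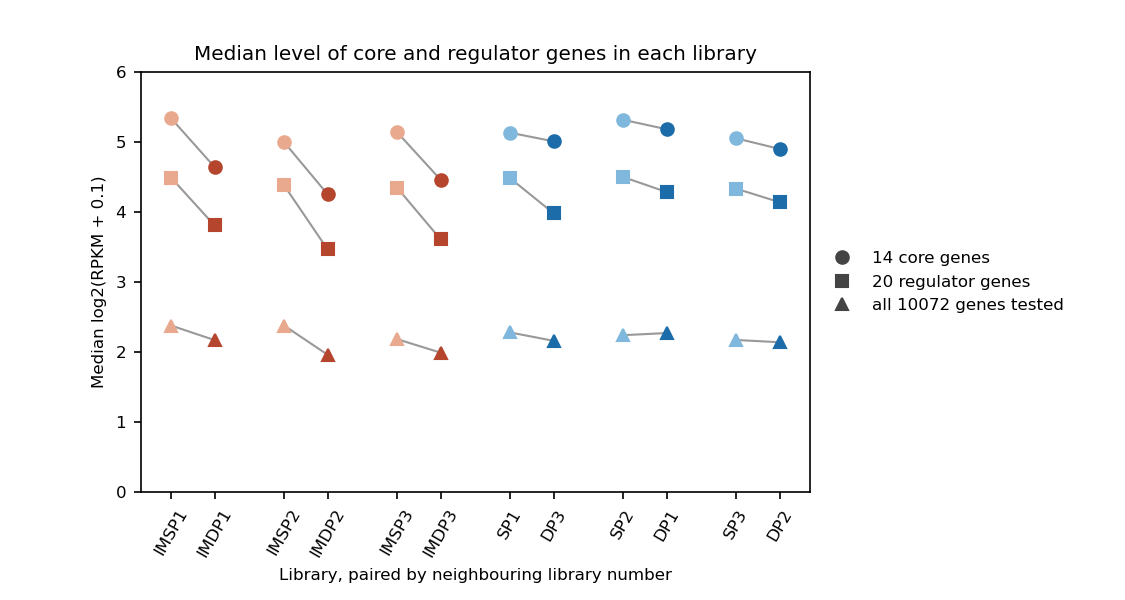
Each pair of points joined by a line is a G0M- library (left) and the G0M+ library with the neighbouring number (right); the axis is the median log2(RPKM + 0.1) of 14 core genes (circles), 20 regulator genes (squares) and all 10072 genes tested (triangles). Core and regulator medians are lower on the right in all 6 pairs, and the steps are larger in the 3 imatinib pairs on the left.

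Averaged over both treatments, 30 of the 35 members were lower in G0M+ than in G0M- cells (12 core and 18 regulator genes; 21.0% of all genes were lower). The medians were -0.48 for the core, -0.52 for the regulator and -0.13 for all genes. Psmc4 was again first by p, at -0.60 ± 0.08 on the log2 scale (SE, limma adjusted p = 0.000583), and Psmc1, at -0.70 ± 0.10, followed (SE, limma adjusted p = 0.000961). Psma3, Psma4, Psma8, Psmd6 and Psmd10 did not pass. With median scaling 22 members were called (12.4% of all genes were lower), and 18 members were called in each of the 25 settings run, the ATPases all among them. The share of all genes called in every setting was not counted here either.

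Whether the difference between G0M+ and G0M- cells was itself larger after imatinib was tested with the interaction term. No member and no other gene passed (0 of 10072, or 0.0%, by limma), with 16 members and 937 genes (9.30%) at an unadjusted p under 0.05. All 35 members had a negative interaction (77.7% of all genes), with medians of -0.45 for the core, -0.51 for the regulator and -0.25 for all genes. So 32 members called after imatinib and 0 called after vehicle do not show that the 2 differences differ.

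The comparisons of treatment within a population share libraries with those above and are given side by side. In IMDP against DP, 0 of 35 members passed the test (0.367% of all genes did), 28 had an unadjusted p under 0.05 (20.5% of all genes) and all 35 were below 0 (69.3% of all genes). The medians were -0.51 for the core, -0.52 for the regulator and -0.17 for all genes. Psmb7 had the smallest p, with 43.3, 36.9 and 32.9 RPKM in DP and 24.2, 23.5 and 21.2 RPKM in IMDP, values that did not overlap (-0.71 ± 0.13 on the log2 scale, SE, limma adjusted p = 0.0502). It passed with the replicate number as a block, with the highest copy of each gene or with a filter at 5 RPKM. The count rose to 4 with that filter (Psmb7, Psmc4, Psmc6 and Psmd8; 2.87% of the genes left by the filter were lower) and to 9 without IMDP1 (Psmb4, Psmb7, Psmc2, Psmc3, Psmc6, Psmd8, Psmd9, Psmd13 and Psmd14; 1.86% of all genes were lower). In IMSP against SP, 0 of 35 members passed and 0 had an unadjusted p under 0.05, where limma called 0 of all genes (0.0%) and 845 (8.39%) had an unadjusted p under 0.05. The members' fold changes, Psma8 aside, ran from -0.30 (Psmc3) to 0.18 (Psmb2), with medians of -0.03 for the core, -0.07 for the regulator and 0.08 for all genes. Psmc4 had 31.9, 34.4 and 30.9 RPKM in SP and 35.3, 32.2 and 30.6 RPKM in IMSP, at a log2 fold change of 0.01 ± 0.12 (SE).

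**Figure D4:**
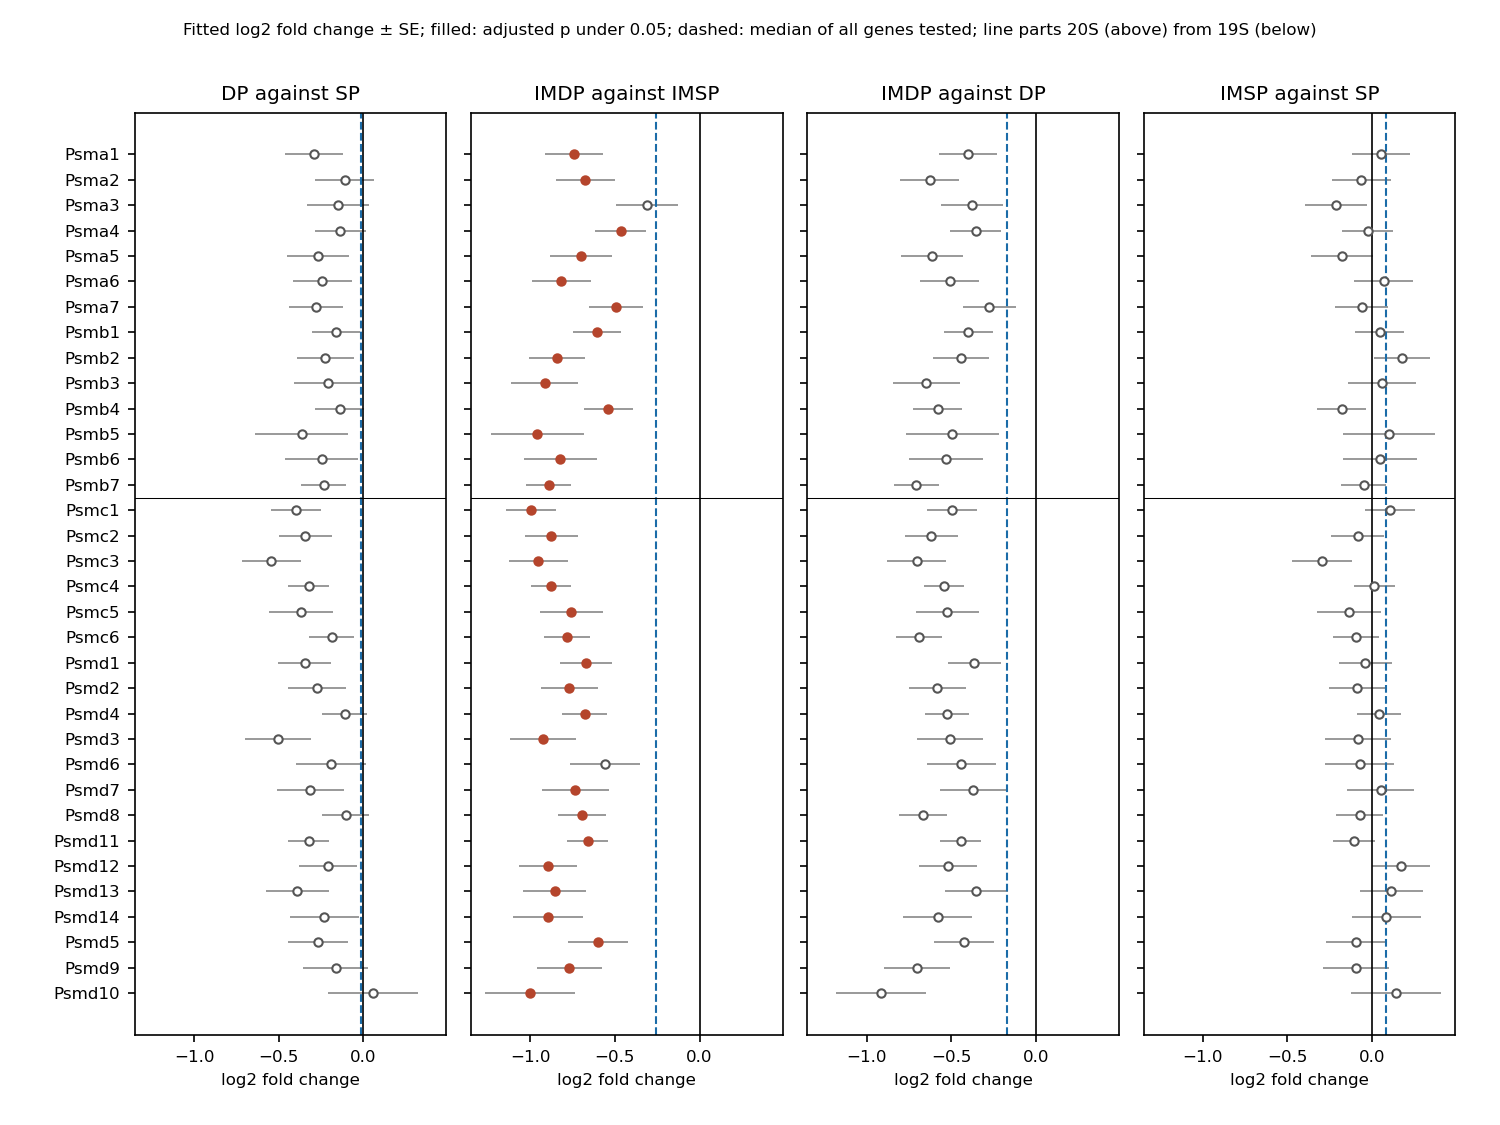
Each panel is a comparison, each row 1 of 34 subunit genes, and each point the fitted log2 fold change ± SE, filled where the adjusted p was under 0.05; the dashed line is the median of all genes tested. Filled points occur in IMDP against IMSP, where 32 of the 34 are filled, and in no other panel.

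The core and the regulator were then compared within each library. The median log2(RPKM + 0.1) of the 14 core genes, without Psma8 and Psmb11, exceeded that of the 20 regulator genes by 0.90, 0.76 and 1.03 in DP, 0.65, 0.82 and 0.72 in SP, 0.83, 0.79 and 0.85 in IMDP, and 0.85, 0.62 and 0.79 in IMSP. The core stood above the regulator in all 12 libraries, and the ranges of the 4 groups overlapped. Group means were 0.90 ± 0.13, 0.73 ± 0.08, 0.82 ± 0.03 and 0.75 ± 0.12 (SD, n = 3) in this order. The summed RPKM of core genes was 1.23 to 1.43 times that of the regulator genes.

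The catalytic genes were also set against their immunoproteasome counterparts, which replace them in the interferon-induced form: Psmb8 for Psmb5, Psmb9 for Psmb6 and Psmb10 for Psmb7. None of these 3 passed the test in any comparison. Psmb8 had 57.0, 31.9 and 37.3 RPKM in IMDP and 78.4, 45.6 and 69.9 RPKM in IMSP (log2 fold change -0.63 ± 0.23, SE, limma adjusted p = 0.0669), and its groups overlapped, unlike those of Psmb5. The log2 ratio of Psmb7 to Psmb10 was 1.88, 1.87 and 1.37 in IMDP, 2.33, 2.63 and 1.95 in IMSP, 2.43, 2.26 and 2.10 in DP and 2.48, 2.91 and 2.29 in SP. It averaged 1.99 ± 0.37 over the 6 G0M+ libraries and 2.43 ± 0.33 over the 6 G0M- libraries (SD), a difference of -0.45 with p = 0.0498 and an adjusted p of 0.5 over 15 tests (exact two-sided permutation test). For Psmb5 to Psmb8 the difference was -0.25 (exact p = 0.195) and for Psmb6 to Psmb9 it was -0.16 (exact p = 0.437), with adjusted p of 0.5 and 0.655. When 1 library was left out, the differences ran from -0.54 to -0.32 for Psmb7 to Psmb10 and from -0.36 to -0.18 for Psmb5 to Psmb8. For Psmb6 to Psmb9 they ran from -0.27 to -0.04. Within the pairs of neighbouring library numbers, the ratio of Psmb7 to Psmb10 was lower in the G0M+ library in 6 of 6 pairs, that of Psmb5 to Psmb8 in 5 and that of Psmb6 to Psmb9 in 4. A test over these pairs, added after seeing the data, gave p = 0.0312, 0.156 and 0.25 in this order, with adjusted p of 0.0938, 0.234 and 0.25 over 3 tests (exact two-sided sign-flip permutation test, for which 0.0312 is the smallest p that 6 pairs allow). With 3 libraries against 3, the exact permutation test cannot go below p = 0.1, so the ratios within a treatment could not reach the threshold.

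Genes that work with the proteasome were taken from 8 lists, with 37 genes in the files. Of the proteins bound to the regulator, 4 of 5 were lower in IMDP than in IMSP, where 23.3% of all genes tested were lower. Uchl5, a deubiquitinase of the regulator, had 7.13, 4.56 and 5.12 RPKM in IMDP and 13.1, 11.3 and 9.10 RPKM in IMSP. Usp14, the other deubiquitinase, had 8.47, 4.55 and 6.61 RPKM against 11.9, 11.8 and 12.7 RPKM, and neither gene overlapped. Their log2 fold changes were -0.99 ± 0.19 (limma adjusted p = 0.00486) and -0.92 ± 0.19 (limma adjusted p = 0.00699, both SE). The ubiquitin receptor Adrm1 and Shfm1 were the other 2 called.

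The ubiquitin-activating enzyme Uba1 and Ubb, a polyubiquitin gene, were lower, with Ubb at 278, 222 and 212 RPKM in IMDP and 382, 360 and 329 RPKM in IMSP. Of the shuttle factors that carry ubiquitinated proteins, Rad23b, Ubqln1 and Ubqln4 were lower. Of the p97 complex, which extracts such proteins, 1 of 5 was lower, a share near that of all genes tested (23.3%). It was the cofactor Nploc4, at -0.67 ± 0.15 on the log2 scale (SE, limma adjusted p = 0.0105). Of the core assembly factors, 2 of 5 were lower (Pomp and Psmg3). So were 2 of 5 of the other caps and the inhibitor (Psme2 and Psme3), both beside 23.3% of all genes. Psme1, the partner of Psme2 in the 11S cap, overlapped between the groups, with 88.4, 53.0 and 65.4 RPKM in IMDP and 96.7, 67.7 and 74.1 RPKM in IMSP. Of 4 genes of transcriptional control, 1 was lower, beside 23.3% of all genes. It was Ddi2, the protease that activates Nfe2l1 (-0.58 ± 0.16, SE, limma adjusted p = 0.0217). Nfe2l1 itself, the factor known to drive proteasome genes when degradation falls short, was at -0.31 ± 0.14 (SE, limma adjusted p = 0.124), with 6.87, 5.38 and 6.70 RPKM in IMDP and 8.59, 6.89 and 8.00 RPKM in IMSP. Averaged over both treatments it was lower in G0M+ cells, at -0.34 ± 0.10 (SE, limma adjusted p = 0.0275). In DP against SP, 0 of the 37 passed, where 2.26% of all genes tested did.

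Because the members moved together, their promoters were searched for shared letters. The windows ran from 250 bases before to 50 after the start in RefSeq (GRCm38.p6), and 29 of the 36 members had one (12 core and 17 regulator genes). The pattern TGACNNNGC, the core of the antioxidant response element that Nfe2l1 and Nfe2l2 bind, was in 5 of 29 members (17.2%), against 14.0% of 27025 genes, on either strand. CCAAT, bound by NF-Y, was in 12 (41.4% against 41.1%), and CACGTG, the E-box, in 2 (6.90% against 8.09%). These shares were close to those of all promoters. The 5 matches of TGACNNNGC are shown in capitals, with up to 10 bases on each side and no base after the start, since they differ in the open letters, in strand and in their distance from the start. The stretches lie at chr14:54618024-54618052 (minus strand) for Psmb5, chr11:70525338-70525356 for Psmb6, chr14:45329587-45329615 for Psmc6, chr11:107479278-107479299 for Psmd12 and chr5:123228149-123228177 for Psmd9 (plus strand), and the first base of the match is 47, 9, 227, 247 and 31 bases before the start.
Psmb5: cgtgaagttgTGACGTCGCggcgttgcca
Psmb6: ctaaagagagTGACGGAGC
Psmc6: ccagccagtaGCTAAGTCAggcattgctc
Psmd12: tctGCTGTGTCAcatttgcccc
Psmd9: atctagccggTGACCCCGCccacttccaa

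After these 3, 5 other patterns were searched with the values known. TGACNNNGC with an A after it was in 1 member (3.45% against 3.45% of all genes) and TGACTCAGC in 0 of 29 (0.503% of all genes). ACTACAA was in 2 (6.90% against 3.78%). CCGGAAG, the core of sites bound by ETS factors, was in 10 members (34.5% against 9.93%), 9 of them of the regulator, and CGGAAGTG, which overlaps it, in 4 (13.8% against 3.86%). The 10 were Psma6, Psmc1, Psmc2, Psmc6, Psmd2, Psmd4, Psmd6, Psmd11, Psmd12 and Psmd13, and Psmd6 among them did not pass the test in IMDP against IMSP. The CCGGAAG matches in the ATPase genes, which had the most negative median of the 6 member roles in IMDP against IMSP (-0.88), are shown in capitals as CCGGAAG or, on the other strand, CTTCCGG. They lie on the plus strand of the gene at chr12:100110164-100110190 for Psmc1, chr5:21785181-21785207 and chr5:21786713-21786739 for the 2 starts of Psmc2, and chr14:45329714-45329740 for Psmc6.
Psmc1: ggtggatgcaCTTCCGGcggtggcgat
Psmc2, first start: ccagtgagcaCTTCCGGgatggggctc
Psmc2, second start: cgcggagctaCTTCCGGtggggaagag
Psmc6: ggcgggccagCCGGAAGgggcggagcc

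Psma8, which replaces Psma7 in the proteasome of germ cells, followed another pattern. It had 61, 78 and 0 reads in DP, 0, 72 and 67 in SP, 0, 173 and 0 in IMDP, and 0, 189 and 1 in IMSP. It was thus above 1 read in 6 libraries and at 0 or 1 in the other 6, with on and off libraries in every group. Ordered by library number, the on libraries were 3 and 4, 9 and 10, and 11 and 12, so that both libraries of each neighbouring pair were on or off together. In the on libraries Psma8 stood at 1.97 to 8.43 RPKM, which was 12.1% to 17.0% of the level of Psma7 in the vehicle libraries and 60.4% and 59.1% in IMDP2 and IMSP2. Psma7 had 9.76 to 17.8 RPKM over all 12 libraries. Among all 46103 genes, Psma8 was the 1 gene with at least 5 reads in each of these 6 libraries and at most 1 in each other library, a pattern defined after its values were seen. Its fold changes had SEs of 2.11 in the pairwise comparisons, and none passed the test.

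**Figure D5:**
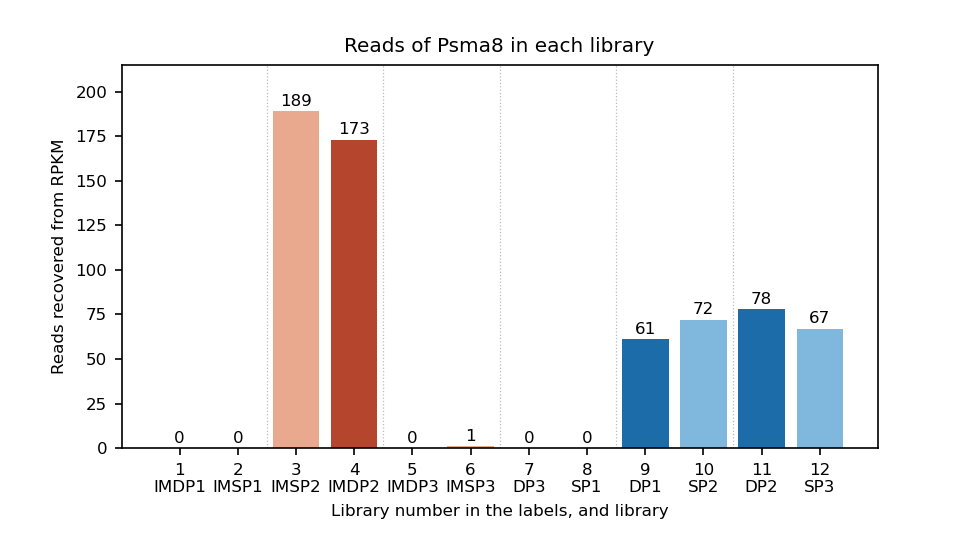
Bars give the reads of Psma8 recovered from the RPKM in each of 12 libraries, ordered by the library number in the labels, with dotted lines between neighbouring pairs and colours for the 4 groups. Both libraries are high in the pairs 3 and 4, 9 and 10, and 11 and 12, and at 0 or 1 in the others.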

How the data were processed

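Each of 12 libraries held the RNA of 100 cells. The authors primed cDNA with not-so-random primers, prepared libraries with Nextera XT and deposited expression as RPKM, 1 value for each of 48737 features. The methods name CLC Genomics Workbench and the reporting summary HISAT2 and featureCounts; per the labels the build was GRCm38 (mm10) and edgeR was used. Whether counting used strand is not given in the sources used here.

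Copies such as Psmb6 and Psmd10 (2 features each) were summed and are uncertain where reads were shared. Genes at 1 RPKM or more in at least 3 libraries (10072) were fitted as log2(RPKM + 0.1) with 4 group means in limma 3.58.1 (R 4.3.3, variance trend), with p-values adjusted over all genes and a threshold of 0.05. Fold changes are on that scale, which understates low genes. RPKM steps gave whole reads for 17732 of 17735 features above 0 (within 0.02 reads), and limma-voom on these reads called 2565 genes in IMDP against IMSP. PCR copies cannot be told apart. The fit was checked on simulated data. Ratios were tested with scipy 1.17.1.

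The members and lists were chosen with earlier results of these data known. Named genes were the catalytic subunits, for each role the 2 smallest and the largest p in the average contrast, up to 3 largest called changes per comparison, members not tested, and the 2 smallest p of each pathway list. Psmg1, Psmg2 and Faf1 met the rule for pathway lists and are not described. Others were named after their values were seen. Title numbers pair IMDP with IMSP (correlations 0.429, 0.655 and 0.457) but not DP with SP. Of the listed genes, Paaf1 had no match. Some genes of the ubiquitin and shuttle factor lists are not reported here.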

Additional observations from a re-analysis of the deposited data

How the results depend on the processing

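The members' direction held under most alternatives, and their counts moved. In IMDP against IMSP, 32 members were called as reported, 20 with median scaling, 13 with scaling to the RPKM sum, and 17 to 33 when 1 library was left out. Of all genes, 2581 were called as reported, 1587 and 1583 with these scalings, 1553 with only the groups compared, 4446 with neighbouring library numbers as a block, and 902 without IMSP1. In DP against SP, 0 members became 2 with that block and 7 with the block and median scaling (980 and 1481 of all genes, 228 as reported), and 0 when 1 library was left out. In IMDP against DP, 0 members became 4 with a filter at 5 RPKM (160 of all genes, 37 as reported), 1 with the replicate block, 1 with the highest copy, and 0 to 9 when 1 library was left out. Averaged over treatments, 30 members were called, and 20 to 33 when 1 library was left out. The replicate block changed no other count of members by over 1.5 times; it shares only numbers between DP and SP.

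The core median in IMDP against IMSP was -0.70 as reported, -0.43 with median scaling, -0.28 with scaling to the RPKM sum and -0.89 to -0.62 when 1 library was left out. The regulator median was -0.78, -0.50 and -0.36, and -0.90 to -0.73. In DP against SP, with 1 library left out, the core median ran from -0.34 to -0.13 and the regulator median from -0.36 to -0.18. Averaged over treatments, the core median was -0.48, and -0.24 with scaling to the RPKM sum; the regulator median was -0.52, -0.37 with median scaling and -0.28 with scaling to the RPKM sum. Median scaling left the median of all genes in IMDP against IMSP at 0.02, while scaling to the RPKM sum moved it to 0.16. Averaged over treatments, these medians were 0.02 and 0.11. Relative to all genes, scaling to the RPKM sum left the core at -0.44 and the regulator at -0.52 in IMDP against IMSP. The cause of the shift of all genes was not tested.

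Of the genes picked by the naming rule, Psma8 and Psmd10 reversed, both without passing the test. Psma3, named outside the rule, ran from -0.45 to 0.11 over the settings in IMDP against IMSP. Averaged over treatments it ran from -0.31 to 0.01. Signs of single genes in IMSP against SP were not followed. There, 20 members were below 0 as reported, 28 with median scaling and 24 with scaling to the RPKM sum. Psma8 in DP against SP was at -0.04 as reported, 0.0018 with median scaling, with and without the block, 0.69 with limma-voom on recovered reads, and -1.57 to 1.48 when 1 library was left out (1.48 without DP3, 0.67 without SP2, 0.78 without SP3). In IMDP against IMSP it ran from -2.29 to 1.74 (0.66 without IMDP1 or IMDP3, 1.74 without IMSP2). Averaged over treatments it was 0.25 with limma-voom and -1.17 to 0.85 without 1 library (0.58 without DP3, 0.31 without IMDP1 or IMDP3, 0.85 without IMSP2, 0.18 without SP2, 0.23 without SP3). Psmd10 in DP against SP was at 0.06 as reported, -0.14 with the highest copy, and -0.25 to 0.26 when 1 library was left out (-0.02 without DP1, -0.25 without SP3). The treatment comparisons could not be fitted with neighbouring library numbers as a block. Depth limits Psmb11, Psma8 and Psmd10, whose lowest counts were 0, 0 and 27 reads.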
